A study of Mus musculus with 8 samples.

Results

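The blood-brain barrier is formed by brain endothelial cells that seal the gaps between them and restrict passage through them. Tight junctions hold neighbouring cells together, carriers and pumps select what crosses the membrane, and vesicular transport through the cell is kept low. Wnt signaling to the endothelium induces and maintains these features, and growing or peripheral vessels lack part of them. The 10 genes described here cover each feature. Cldn5 (claudin-5), Ocln (occludin) and Lsr (angulin-1, at contacts where 3 cells meet) encode membrane proteins of tight junctions, Tjp1 (ZO-1) encodes a scaffold beneath them, and Cdh5 (VE-cadherin) encodes the endothelial cadherin of adherens junctions. Slc2a1 (GLUT1) carries glucose, Abcb1a (P-glycoprotein) pumps drugs and other lipophilic molecules back into the blood, and Mfsd2a carries lysophosphatidylcholine lipids and restrains transcytosis. Cav1 (caveolin-1) is a coat protein of caveolae, and Plvap forms the diaphragms of caveolae and fenestrae in leaky vessels.

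The genes were taken by symbol, and all 10 were found among 21848 genes. Their UMIs (unique molecular identifiers, each standing for 1 captured RNA molecule) were counted in droplets with at least 2000 UMIs and a mitochondrial share below 20%. This left 46216 droplets in 8 libraries and 44072 cells once predicted doublets were removed, 6587 of them endothelial-like. Levels are given as CPM, the UMIs of a gene per 1000000 UMIs summed over the cells of a class in 1 mouse.

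Each library held cells from the injured right sensorimotor cortex of 1 adult mouse at 6 days after photothrombosis (PT), in which light and a dye in the blood close cortical vessels. Every mouse carried an osmotic minipump from 2 days before PT. It delivered saline to 4 mice and ancrod, a snake venom enzyme that depletes fibrinogen from the blood, at 2.4 U per day to 4 mice. The labels give the genotype as Bl/J6 and the sex as female for all of them, whereas the study's methods name C57BL/6N mice of both sexes, and this difference was not settled. No uninjured cortex was among the samples, so no value below is a change with injury. Per the study's methods, the excised piece held the injury site together with spared tissue around it, and their cells cannot be told apart here. The meninges and corpus callosum were left out, myelin and red blood cells were removed, and cells were not sorted. Batch 1 of injury and sequencing held 3 mice of each group, and batch 2 held 1 of each.

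The libraries held 97861434 to 142139441 UMIs, and kept droplets had a median of 10653 to 17575 UMIs per library. Pairs of libraries shared 3 to 15 cell barcodes. Saline mice gave 973 to 1216 endothelial-like cells and ancrod mice 386 to 769. All 12 endothelial markers were detected in these cells. They were clustered without the 10 genes and without 67 related ones, and named from markers as 4431 capillary-like, 725 arterial-like, 967 venous-like and 349 tip-like cells, the last after the cells that lead vessel sprouts. A further 115 cells were given no zone. The tip-like cells were 1 cluster, led by Pdlim1, Adamts9, Selp and Aplnr, which also carried venous markers. The 8 venous markers summed to between 2735 and 4525 CPM in it, 3581 to 5964 CPM in venous-like and 822 to 1606 CPM in capillary-like cells. The 8 tip-like markers summed to between 501 and 1040 CPM in it (172 to 343 CPM in capillary-like cells). Simulated doublets made up a mean share of 0.606 of its cells' neighbours, the highest of the 15 endothelial clusters.

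The tip-like cluster stood apart in other ways that move with its results. Its cells had a median of 37840 UMIs, against 8160 in capillary-like, 11094 in arterial-like and 27092 in venous-like cells. The 12 endothelial markers summed to between 6236 and 10448 CPM in it and to between 19374 and 20892 CPM in capillary-like cells, with none at 0. The 6 markers of dividing cells summed to between 86.9 and 604 CPM, against 5.29 to 12.2 CPM. The 8 pericyte markers ranged from 22.4 to 921 CPM over the mice (123 to 316 CPM in capillary-like cells) and the 8 fibroblast markers from 37.7 to 896 CPM (59.1 to 143 CPM). Both were highest in ancrod mice 1 and 4, at 769 and 921 CPM of pericyte markers and 896 and 480 CPM of fibroblast markers. The 6 dendritic markers summed to between 94.6 and 203 CPM in the tip-like cells and to between 4.37 and 12.1 CPM in capillary-like cells. Their list includes Fscn1, which was among the leading genes of the tip-like cluster, and its share of this sum was not worked out. The 3 B cell markers, 1 of them at 0, summed to between 1.36 and 4.34 CPM (0.514 to 1.11 CPM in capillary-like cells). The part of these markers and of cell division in the results below was not tested.

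On GRCm39 (GENCODE vM39 annotation) the genes lie on 7 chromosomes, and reads from their exons and introns were counted. Cldn5 is at chr16:18595597-18597012 on the plus strand, Ocln at chr13:100630334-100689535 on the minus strand, and Cav1 at chr6:17306140-17341451 and Abcb1a at chr5:8710022-8798575 on the plus strand. Chromosome 4 holds Mfsd2a (chr4:122840643-122855244, minus) and Slc2a1 (chr4:118965908-118996365, plus). Chromosome 7 holds Tjp1 (chr7:64945898-65177529, minus) and Lsr (chr7:30657195-30673340, minus), and chromosome 8 holds Plvap (chr8:71948674-71964506, minus) and Cdh5 (chr8:104828231-104871143, plus). Cldn5 spans 1416 bases and Tjp1 231632.

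Promoters are shown for Mfsd2a, Abcb1a and Tjp1, the 3 genes with the lowest log2 difference between tip-like and capillary-like cells, and for Cav1, which differed in the other direction. They are RefSeq sequences of GRCm38.p6, an older build than that of the counts, from 250 bases before to 50 bases after the start, 5′ to 3′ on the gene's strand. Sequences were matched for 8 of the 10 genes, and none for Plvap and Cdh5. The windows are chr4:122961139-122961438 (minus) for Mfsd2a, chr5:8566841-8567140 (plus) for Abcb1a, chr7:65371195-65371494 (minus) for Tjp1 and chr6:17306085-17306384 (plus) for the first of 2 starts of Cav1. Capitals mark the letters CTTTGA (core of the TCF/LEF motif, the nuclear end of Wnt signaling), GGAAG (ETS core) and ACAAT (SOX core) on either strand.
Mfsd2a: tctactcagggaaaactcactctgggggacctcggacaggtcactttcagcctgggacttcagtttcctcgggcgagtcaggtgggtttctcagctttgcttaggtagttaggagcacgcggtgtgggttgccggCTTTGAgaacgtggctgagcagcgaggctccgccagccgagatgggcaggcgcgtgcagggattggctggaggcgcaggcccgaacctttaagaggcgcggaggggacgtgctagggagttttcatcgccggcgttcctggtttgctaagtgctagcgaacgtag
Abcb1a: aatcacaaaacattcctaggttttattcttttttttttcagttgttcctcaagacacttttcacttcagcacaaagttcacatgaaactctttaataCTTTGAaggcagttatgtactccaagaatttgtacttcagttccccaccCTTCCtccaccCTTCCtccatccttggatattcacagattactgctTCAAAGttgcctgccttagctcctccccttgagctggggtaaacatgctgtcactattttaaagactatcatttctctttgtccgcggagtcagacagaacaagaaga
Tjp1: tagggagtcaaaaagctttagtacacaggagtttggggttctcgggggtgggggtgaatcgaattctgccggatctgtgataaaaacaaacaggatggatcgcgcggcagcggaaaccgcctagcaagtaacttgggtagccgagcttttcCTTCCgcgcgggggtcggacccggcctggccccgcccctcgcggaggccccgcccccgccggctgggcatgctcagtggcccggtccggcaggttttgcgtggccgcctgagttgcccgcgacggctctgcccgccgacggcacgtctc
Cav1: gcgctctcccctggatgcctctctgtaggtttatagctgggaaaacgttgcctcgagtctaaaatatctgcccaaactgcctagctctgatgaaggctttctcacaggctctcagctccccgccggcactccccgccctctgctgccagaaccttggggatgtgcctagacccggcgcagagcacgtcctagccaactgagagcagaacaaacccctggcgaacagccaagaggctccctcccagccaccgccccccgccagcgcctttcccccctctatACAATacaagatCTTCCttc
CTTTGA occurred once in the Mfsd2a window and at 2 places in the Abcb1a window, and was not found in those of Tjp1 and Cav1. Of the other genes only Lsr held it. GGAAG occurred at 2 places for Abcb1a and at 1 each for Tjp1 and Cav1, and ACAAT at 1 for Cav1. Of all 32851 promoters of 300 bases, 16.0% held CTTTGA, 71.4% GGAAG and 31.0% ACAAT, so these matches are a description and mark no binding site. In base composition the Abcb1a window had 40.3% G or C and 2 CpGs, against 60.3% and 22 for Mfsd2a, 65.3% and 31 for Tjp1, and 59.3% and 13 for Cav1. The median over all promoters was 52.7% and 7 CpGs.

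To see where the genes were expressed in the excised tissue, their levels were set beside those of droplets with at most 100 UMIs, which hold free RNA and no cell. Cldn5 was at 4869 ± 964 CPM in capillary-like cells (SD, n = 8 mice), 4495 ± 755 CPM in venous-like, 4257 ± 759 CPM in arterial-like and 3576 ± 658 CPM in tip-like cells, neighbours in this order overlapping. The free RNA held 477 ± 118 CPM, and pericyte-like cells 12.9 ± 6.85 CPM. Ocln was also highest in capillary-like cells, at 340 ± 34.0 CPM, followed by arterial-like (317 ± 30.4 CPM) and venous-like cells (281 ± 20.7 CPM). Tip-like cells, at 135 ± 24.2 CPM, did not overlap with these, and the free RNA held 35.2 ± 12.4 CPM. None of the 10 other classes had a mean of Cldn5, Ocln, Slc2a1 or Lsr above that of the free RNA. A mean below the free RNA does not show that a class lacked the gene. Thinned to an equal number of UMIs, 20.2% ± 4.49 of neutrophil-like and 14.1% ± 0.642 of microglia-like cells held an Slc2a1 UMI. This share was 98.1% ± 1.17 in capillary-like cells and lowest in fibroblast-like cells, at 3.80% ± 0.931. In fibroblast-like cells Lsr, at 38.0 ± 7.83 CPM, was above the free RNA (38.3 ± 9.88 CPM) in 5 of 8 mice.

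**Figure D1:**
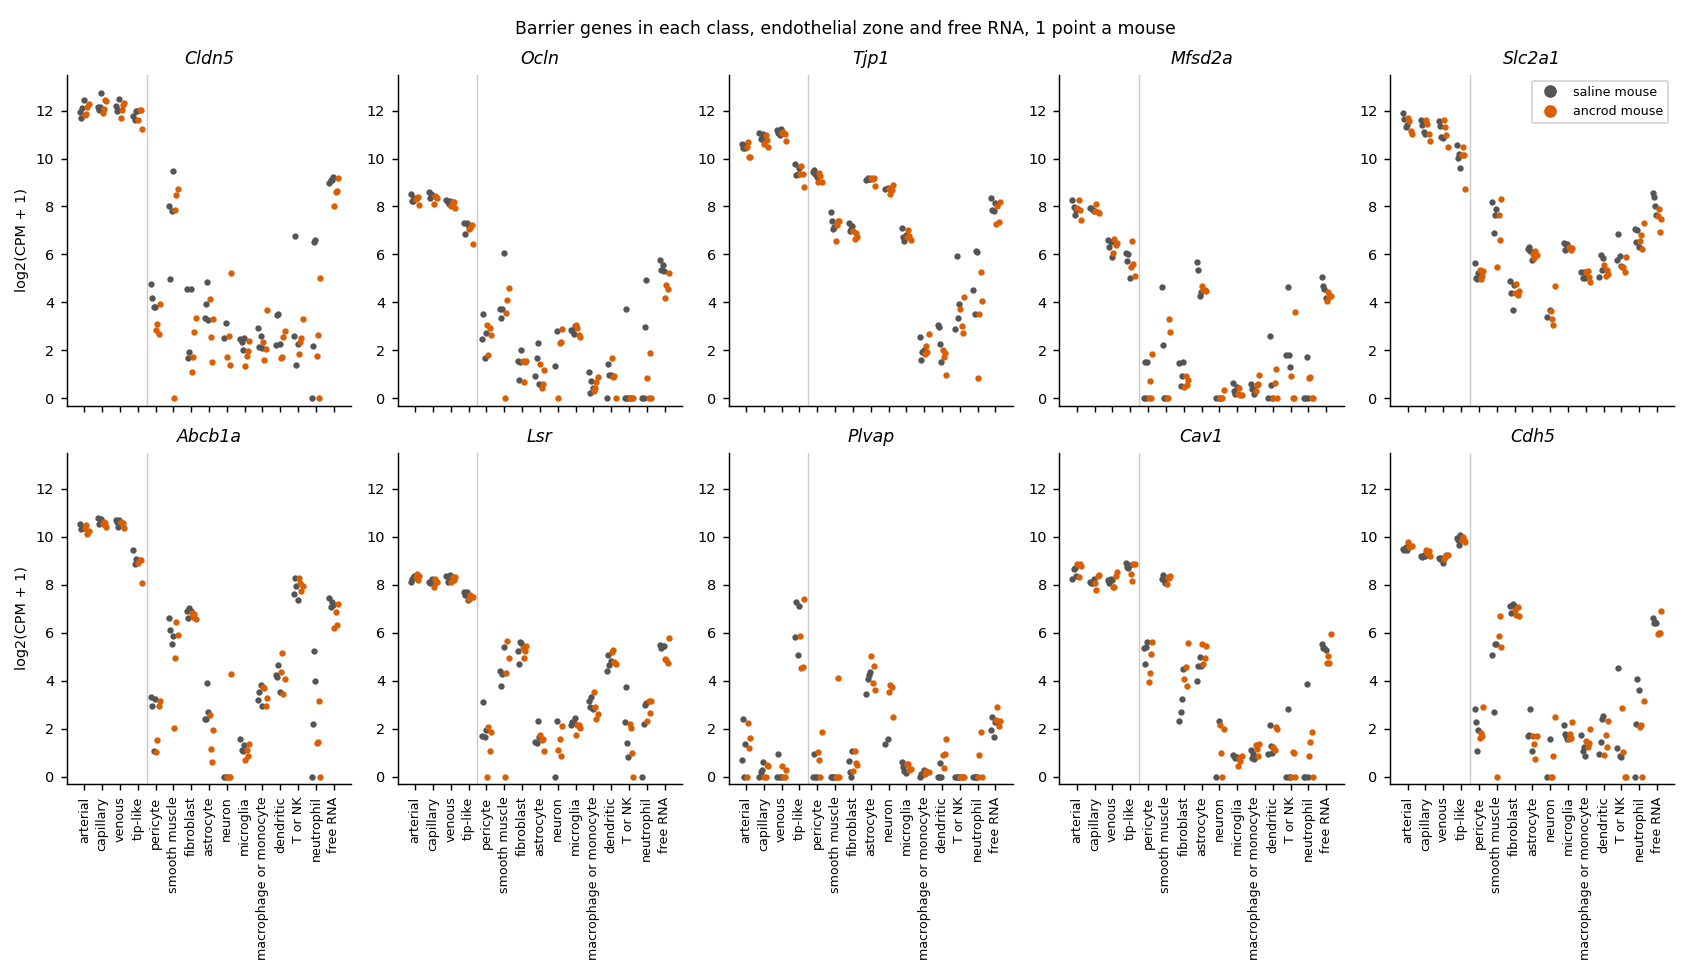
Level of each gene, as log2(CPM + 1) on the vertical axis, in the 4 endothelial zones (left of the grey line), 10 other classes and the free RNA. Each point is 1 mouse (grey saline, orange ancrod), and mice with under 10 cells of a class have no point. Cldn5 lies at 4869 CPM in capillary-like and 12.9 CPM in pericyte-like cells, whereas Tjp1 stays above the free RNA in pericyte-like, astrocyte-like and neuron-like cells.

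Tjp1 was shared with cells outside the endothelium. It was at 625 ± 75.8 CPM in pericyte-like, 556 ± 42.4 CPM in astrocyte-like and 422 ± 37.4 CPM in neuron-like cells (n = 6 mice with at least 10 neuron-like cells), against 242 ± 60.8 CPM in the free RNA. Tip-like cells, at 689 ± 132 CPM, overlapped with pericyte-like cells. With every cell thinned to 2000 UMIs, 68.7% ± 2.38 of pericyte-like cells held a Tjp1 UMI, against 0.631% ± 0.418 of macrophage-like or monocyte-like cells. The shares without thinning were 90.9% and 5.62%, at median depths of 5526 and 22849 UMIs. Microglia-like cells, with 20.8% ± 2.22 after thinning, lay between them.

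Abcb1a, Cdh5, Cav1 and Mfsd2a each had 1 further class with a mean above the free RNA. Abcb1a was at 242 ± 52.6 CPM in T-like or NK-like cells, above the free RNA (126 ± 35.0 CPM) of the same mouse in 8 of 8 mice. After thinning, 29.99% ± 6.45 of these cells held an Abcb1a UMI, against 0.242% ± 0.102 of microglia-like cells (67.2% and 2.02% without thinning, at median depths of 8605 and 15469 UMIs). Fibroblast-like cells were at 110 ± 12.7 CPM of Abcb1a, and 16.5% ± 3.21 of them held a UMI after thinning. Cdh5 was at 124 ± 15.8 CPM in fibroblast-like cells, above the free RNA (82.0 ± 20.1 CPM) in 7 of 8 mice. It was found in 20.4% ± 3.31 of them after thinning and 86.4% without, at a median of 41824 UMIs, against 0.497% ± 0.149 and 3.97% of microglia-like cells. Cav1 was at 302 ± 29.6 CPM in smooth muscle-like cells, within the range of the endothelial zones and above the free RNA (38.2 ± 11.2 CPM) in 8 of 8 mice. Mfsd2a was at 27.6 ± 11.5 CPM in astrocyte-like cells, above the free RNA (21.2 ± 5.48 CPM) in 7 of 8 mice. It was found in 5.85% ± 3.45 of them after thinning and 25.7% without, at a median of 9290 UMIs, against 0.0665% ± 0.0893 and 0.424% of microglia-like cells.

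Plvap had an order of its own. It was highest in tip-like cells, at 80.9 ± 61.4 CPM, and next in astrocyte-like cells, at 17.9 ± 7.04 CPM, with overlapping ranges (21.7 to 166 CPM and 9.76 to 31.3 CPM). Astrocyte-like cells were above the free RNA (3.93 ± 1.32 CPM) in 8 of 8 mice, and neuron-like cells, at 7.29 ± 5.18 CPM, in 4 of 6. A Plvap UMI was present in 10.8% ± 6.42 of thinned tip-like cells, 2.96% ± 0.973 of astrocyte-like cells and 0.05001% ± 0.0274 of microglia-like cells. Without thinning these shares were 36.1%, 12.02% and 0.484%. The arterial-like, capillary-like and venous-like zones were below the free RNA in each of the 8 mice.

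Within the endothelium the zones were compared in the same mice, by edgeR's quasi-likelihood test on UMIs summed per mouse and zone with Benjamini-Hochberg adjustment over 11540 genes. The zones are clusters of the same cells, so these p-values do not account for the clustering, and the shares given for all genes include genes that define the zones.

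Tip-like cells differed from capillary-like cells in all 9 genes other than Plvap, of which Cdh5 and Cav1 were higher and 7 were lower. Plvap had enough UMIs for the fit through the tip-like cells alone, so it had to differ there, and its values are given below without a test. Of all genes tested, 35.3% were higher and 35.6% lower. The CPM of the 2 zones did not overlap in 7 of the 9 genes, and in 27.8% of all genes tested. The 9 genes kept these directions under every alternative run, and 1 call was lost, that of Cldn5 when cells were given to zones by marker score.

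Mfsd2a, the lipid carrier, had the lowest difference. In capillary-like cells it was at 247, 247, 228 and 222 CPM in saline mice 1 to 4 and at 227, 273, 216 and 213 CPM in ancrod mice 1 to 4. In tip-like cells it was at 65.3, 51.9, 63.7 and 31.3 CPM and at 43.8, 94.1, 47.8 and 33.5 CPM. Every tip-like value lay below every capillary-like value, and ancrod mouse 2 was the highest in both zones (log2 difference -2.12 ± 0.10, SE, adjusted p = 1.8e-17).

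Abcb1a, the drug pump, was at 1762, 1458, 1530 and 1698 CPM in capillary-like cells of saline mice and at 1476, 1575, 1503 and 1370 CPM in those of ancrod mice. In tip-like cells the values were 697, 463, 536 and 516 CPM and 479, 520, 519 and 268 CPM. The zones did not overlap, and ancrod mouse 4 was the lowest in each (log2 difference -1.60 ± 0.07, adjusted p = 3.1e-18). Slc2a1, the glucose carrier, was at 2459 ± 517 CPM in capillary-like and 1075 ± 346 CPM in tip-like cells, lower in 8 of 8 mice (-1.18 ± 0.09, adjusted p = 6.0e-13). Mice differed widely in Slc2a1 in each zone, from 1709 to 3104 CPM in capillary-like cells.

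Among the tight junction genes the scaffold Tjp1 had the lowest difference. It was at 2122, 1792, 1856 and 2092 CPM in capillary-like cells of saline mice and at 1569, 1995, 1760 and 1431 CPM in those of ancrod mice. In tip-like cells it was at 874, 638, 648 and 770 CPM and at 645, 828, 659 and 453 CPM, without overlap (log2 difference -1.37 ± 0.06, adjusted p = 2.6e-19). Ocln was lower by a like amount in 8 of 8 mice (-1.29 ± 0.06, adjusted p = 5.2e-18). Lsr, at 184 ± 16.6 CPM against 277 ± 20.7 CPM, and Cldn5 had differences of -0.53 ± 0.05 (adjusted p = 4.4e-10) and -0.38 ± 0.08 (adjusted p = 0.00013). Cldn5 was lower in 8 of 8 mice with overlapping ranges, and with zones by marker score its difference was -0.10 (adjusted p = 0.21).

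Cdh5, the adherens junction cadherin, was higher in tip-like cells. It was at 588, 575, 595 and 586 CPM in capillary-like cells of saline mice and at 705, 634, 670 and 591 CPM in those of ancrod mice, and at 972, 925, 812 and 1069 CPM and 934, 1001, 940 and 880 CPM in tip-like cells. All tip-like values were above all capillary-like values (log2 difference 0.66 ± 0.06, adjusted p = 1.1e-11). Cav1 was higher in 8 of 8 mice, at 416 ± 67.8 CPM against 283 ± 38.9 CPM, with overlapping ranges (0.60 ± 0.07, adjusted p = 1.5e-08).

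Within the endothelium Plvap was found almost entirely in the tip-like cluster. Of its 1612 UMIs in endothelial-like cells, 1569 (97.3%) lay in the tip-like cells, which were 5.30% of the cells and held 15.2% of all endothelial-like UMIs. The capillary-like cells held 11 Plvap UMIs, the venous-like cells 7 and the arterial-like cells 18. In tip-like cells it was at 54.6, 156, 32.8 and 135 CPM in saline mice and at 57.4, 21.7, 22.6 and 166 CPM in ancrod mice. The values spread widely within each group, and the highest capillary-like value was 0.514 CPM (log2 difference 8.44 ± 0.24, a size that rests on the few capillary-like UMIs). After thinning, 39 of the 349 tip-like cells held a Plvap UMI. With zones by marker score the log2 difference of venous-like cells in Plvap was 6.38.

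**Figure D2:**
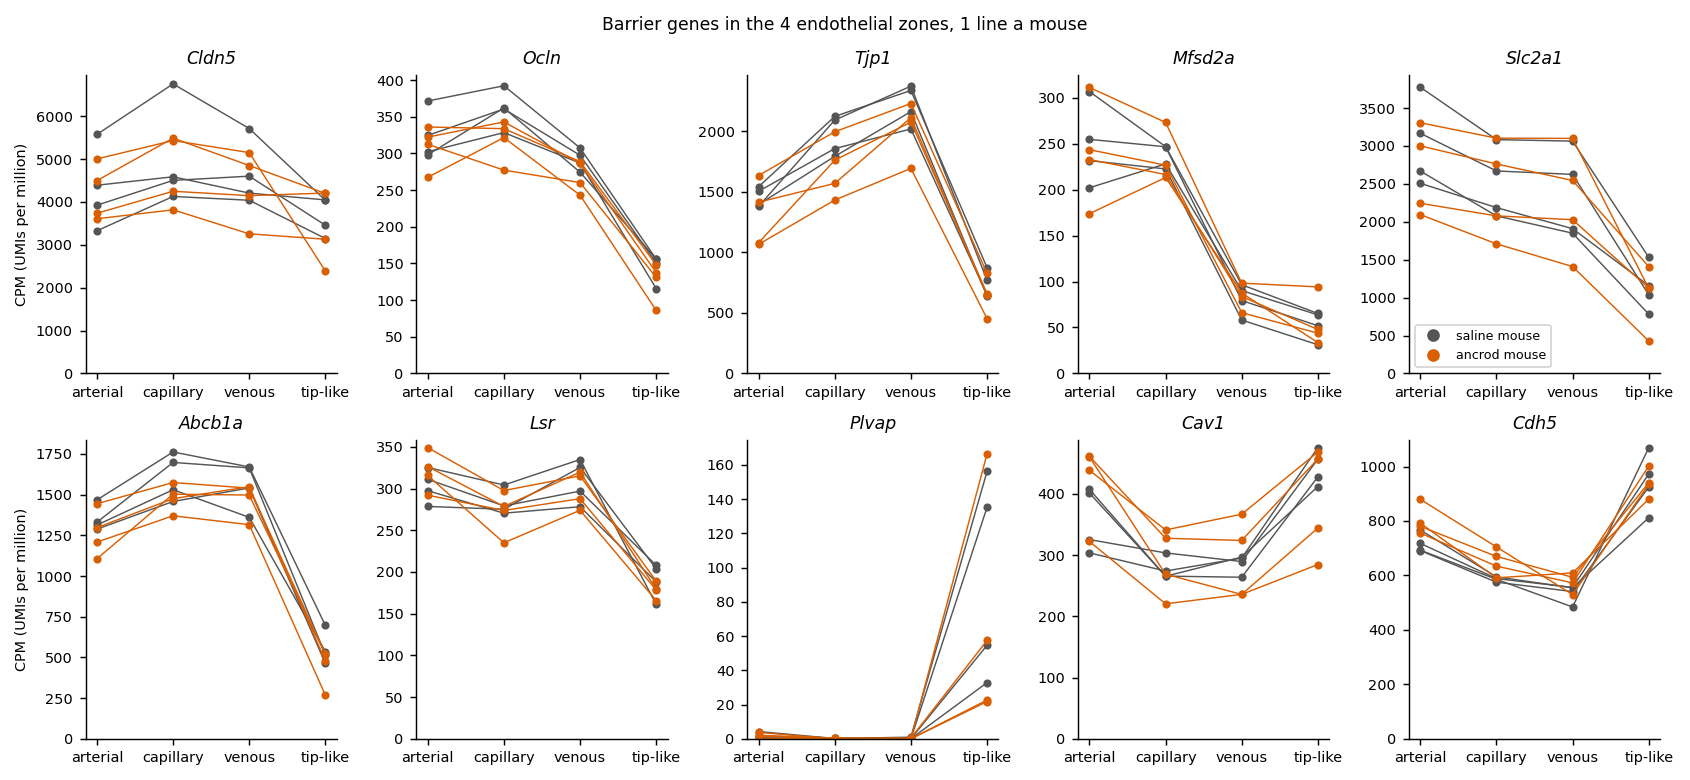
CPM of each gene (vertical axes from 0) in the 4 endothelial zones, with 1 line for each mouse (grey saline, orange ancrod). Mfsd2a lies between 213 and 273 CPM in capillary-like cells and between 58.1 and 98.2 CPM in venous-like cells, and Plvap exceeds 20 CPM in the tip-like zone alone.

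Venous-like cells differed from capillary-like cells in 4 of the 9 genes other than Plvap, 2 higher and 2 lower. Of all genes tested, 17.9% were higher and 18.6% lower. Mfsd2a was at 96.5, 79.3, 90.1 and 58.1 CPM in venous-like cells of saline mice and at 66.1, 98.2, 83.6 and 87.5 CPM in those of ancrod mice. All of these lay below the capillary-like values (log2 difference -1.48 ± 0.09, adjusted p = 4.2e-14). Its venous-like and tip-like ranges overlapped. Ocln was lower in 8 of 8 mice, at 281 ± 20.7 CPM (-0.24 ± 0.06, adjusted p = 0.0010). Sums of cell type markers moved with this zone without overlap, and their part was not tested. The 12 endothelial markers summed to between 14141 and 15046 CPM in venous-like cells (19374 to 20892 CPM in capillary-like cells), the 7 neuron markers to between 2.32 and 12.2 CPM (23.8 to 45.3 CPM), the 6 markers of dividing cells to between 13.1 and 22.6 CPM (5.29 to 12.2 CPM) and the 3 B cell markers, 1 of them at 0, to between 1.69 and 4.00 CPM (0.514 to 1.11 CPM).

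Tjp1 and Lsr were higher in venous-like cells in 8 of 8 mice, at 2124 ± 213 CPM (0.26 ± 0.05, adjusted p = 0.00036) and 304 ± 22.8 CPM (0.17 ± 0.05, adjusted p = 0.010). With zones by marker score neither passed (0.11, adjusted p = 0.065, and 0.06, adjusted p = 0.30), and with thinned cells the difference of Lsr was -0.01 (adjusted p = 0.99). The other 5 genes did not pass, with log2 differences from -0.12 ± 0.06 (Cdh5) to 0.06 ± 0.07 (Cav1). With zones by marker score, Slc2a1 (-0.27, adjusted p = 0.00060, against -0.07 ± 0.09) and Abcb1a (-0.15, adjusted p = 0.045) passed as lower. Abcb1a, at 1518 ± 127 CPM against 1547 ± 129 CPM, was among them.

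Arterial-like cells differed from capillary-like cells in 5 of the 9 genes other than Plvap, 2 higher and 3 lower. Of all genes tested, 12.4% were higher and 14.0% lower. Cav1 was at 304, 401, 407 and 325 CPM in arterial-like cells of saline mice and at 460, 322, 461 and 438 CPM in those of ancrod mice, above the capillary-like level of the same mouse in each (log2 difference 0.41 ± 0.07, adjusted p = 6.2e-05). Cdh5 was higher in 8 of 8 mice too, at 760 ± 61.9 CPM (0.25 ± 0.06, adjusted p = 0.0012). Plvap, on 18 against 11 UMIs and below the free RNA in both zones, gave no comparison.

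Tjp1 was lower in arterial-like cells in 8 of 8 mice, at 1377 ± 206 CPM (-0.45 ± 0.06, adjusted p = 9.3e-08), and so was Abcb1a, at 1307 ± 117 CPM (-0.29 ± 0.07, adjusted p = 0.0025). Cldn5 was lower in 8 of 8 mice (-0.24 ± 0.08, adjusted p = 0.029). Leaving out saline mouse 1, 2 or 4 or ancrod mouse 1 or 3 ended that call (adjusted p from 0.052 to 0.10), as did DESeq2 (adjusted p = 0.055) and the fit without the mouse block (adjusted p = 0.19). Slc2a1 (0.17 ± 0.09), Lsr (0.12 ± 0.05), Ocln (-0.15 ± 0.06) and Mfsd2a (-0.01 ± 0.09) did not pass. Ocln passed with zones by marker score (-0.30, adjusted p = 2.2e-05), and narrowly with no filter, with doublets kept or without ancrod mouse 1 (adjusted p = 0.046, 0.04998 and 0.045). Lsr passed with DESeq2 (0.14, adjusted p = 0.0096). The 7 neuron markers summed to between 264 and 401 CPM in arterial-like cells, against 23.8 to 45.3 CPM in capillary-like cells. The 8 fibroblast markers summed to between 174 and 284 CPM, against 59.1 to 143 CPM, and the part of both lists was not tested. The neuron list includes Stmn2 and the fibroblast list Fbln2, which were among the leading genes of the arterial-like cluster itself.

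**Figure D3:**
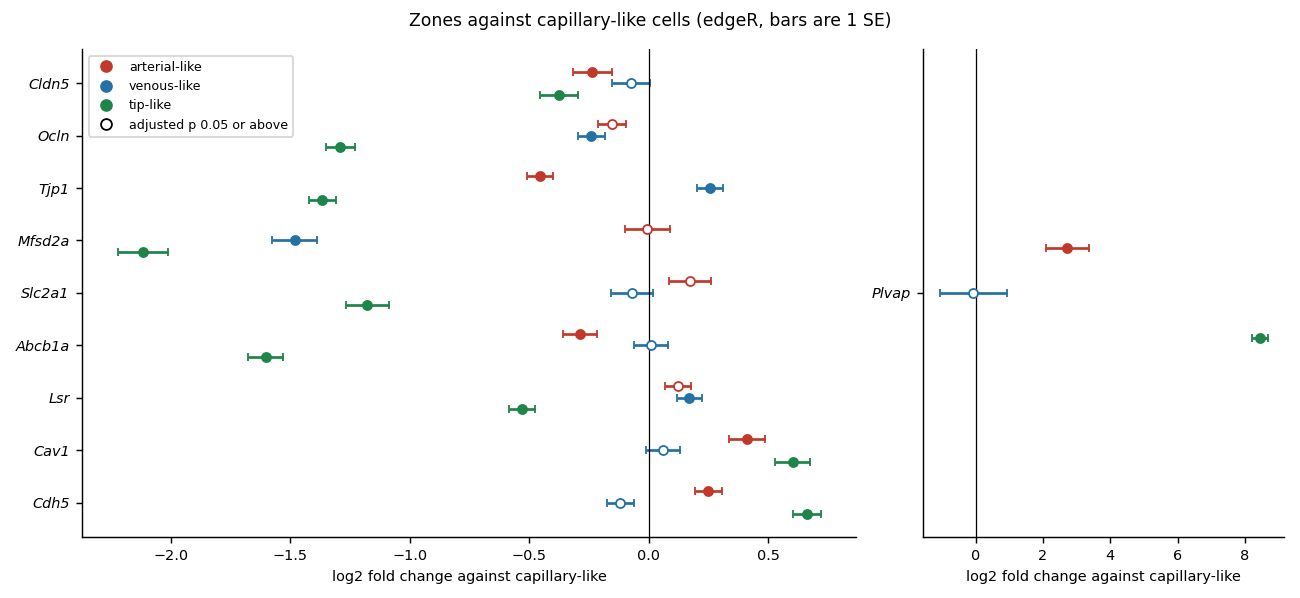
Log2 difference of each gene in arterial-like (red), venous-like (blue) and tip-like (green) cells against capillary-like cells, from edgeR over 8 mice; bars are 1 SE, filled points passed the adjusted threshold of 0.05, and Plvap, which entered the fit through tip-like cells alone, has its own axis and is not read as a test. Mfsd2a is at -2.12 in tip-like and -1.48 in venous-like cells and at -0.01 in arterial-like cells.

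Further barrier genes were read from 4 lists. All 18 other transporters tested differed in tip-like cells, 16 lower and 2 higher, with a median log2 difference of -1.38 against -0.01 over all genes, of which 35.6% were lower and 35.3% higher. The organic anion transporters Slco1a4, at 379 ± 112 CPM against 2979 ± 434 CPM in capillary-like cells, and Slco1c1, at 257 ± 83.6 CPM against 1725 ± 119 CPM, were the lowest (-2.94 ± 0.12 and -2.74 ± 0.14). The higher ones were Abcb1b, the other mouse P-glycoprotein gene, at 26.8 ± 7.61 CPM against 4.49 ± 1.12 CPM (2.56 ± 0.18), and Slc38a5, a glutamine carrier (1.34 ± 0.15). Abcb1a and Abcb1b thus differed in opposite directions. They are close copies, and reads that match both may have been lost or split in counting, so the levels of both are uncertain.

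The same list had 11 genes lower and 3 higher in venous-like cells (all genes, 18.6% and 17.9%) and 13 lower and 2 higher in arterial-like cells (all genes, 14.0% and 12.4%). Slc38a5 spread most widely over the zones, at 6.30 ± 3.61 CPM in arterial-like (-3.92 ± 0.27), 94.0 ± 22.6 CPM in capillary-like and 385 ± 65.9 CPM in venous-like cells (2.08 ± 0.14). The monocarboxylate carrier Slc16a1 was lower in arterial-like cells (-1.89 ± 0.14), and the taurine carrier Slc6a6 was higher there (0.67 ± 0.12) and lower in venous-like cells (-0.65 ± 0.12). Abcb1b was higher in venous-like cells (1.76 ± 0.17) and Slco1c1 lower (-0.91 ± 0.13).

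Of 17 Wnt and barrier regulators, 16 were lower and 0 higher in tip-like cells, with a median of -1.005 (all genes, 35.6% lower and 35.3% higher). Notum, a secreted Wnt inhibitor, was at 3.20 ± 1.72 CPM against 61.1 ± 11.4 CPM (-4.19 ± 0.17), and Axin2, a feedback inhibitor of the pathway, at 14.2 ± 5.52 CPM against 76.9 ± 8.63 CPM (-2.38 ± 0.13). In venous-like cells 10 were lower and 0 higher (all genes, 18.6% and 17.9%), led by Notum (-1.09 ± 0.09) and the transcription factor Sox17 (-0.68 ± 0.06). In arterial-like cells 3 were higher and 6 lower (all genes, 12.4% and 14.0%). There Sox17 (0.69 ± 0.06) and the sphingosine 1-phosphate receptor S1pr1 (0.51 ± 0.07) were higher, and the Wnt inhibitors Apcdd1 (-1.19 ± 0.10) and Nkd1 (-0.81 ± 0.10) lower.

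Of 15 other junction genes tested out of 20, 5 were higher and 5 lower in tip-like cells, with a median of 0.08. These shares were near those of all genes, 35.3% and 35.6%. Cdh2 (N-cadherin, 0.90 ± 0.12) and the adhesion molecule Jam3 (0.82 ± 0.18) were the highest, and Jam2 (-1.16 ± 0.07) and the polarity gene Pard3 (-1.14 ± 0.08) the lowest. Venous-like cells (all genes, 17.9% higher and 18.6% lower) had 5 higher, led by Cdh2 (0.81 ± 0.12) and the angulin Ildr2 (0.67 ± 0.07), and 4 lower, led by Jam3 (-0.87 ± 0.19) and Jup (plakoglobin, -0.54 ± 0.07). Arterial-like cells (all genes, 12.4% higher and 14.0% lower) had 1 higher, F11r (junctional adhesion molecule A, 0.26 ± 0.06), and 5 lower, led by Cdh2 (-1.31 ± 0.16) and Ildr2 (-0.80 ± 0.08).

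Of 10 other caveola and transcytosis genes tested out of 12, 4 were higher and 4 lower in tip-like cells, with a median of 0.04, again near the shares of all genes. Cavin3, of the caveolar coat, and Ehd4 were higher (1.36 ± 0.09 and 1.21 ± 0.07), and Cavin2, also of the coat, and Dnm2, a dynamin that cuts vesicles free, were lower (-1.67 ± 0.07 and -0.69 ± 0.06). In arterial-like cells, where 12.4% of all genes were higher and 14.0% lower, 6 were higher, led by Ehd2 (1.12 ± 0.08) and Ehd4 (0.84 ± 0.08), and Dnm2 was lower (-0.29 ± 0.07). In venous-like cells, where 17.9% of all genes were higher and 18.6% lower, Cavin3 (0.42 ± 0.09) and Pacsin2 (0.23 ± 0.06) were higher and 3 genes lower, led by Cavin2 (-0.59 ± 0.06) and Cav2 (-0.43 ± 0.06).

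The 8 clusters that made up the capillary-like cells also differed among themselves, given here over pooled cells and without a test. Tjp1 ranged from 1177 to 2356 CPM (2.00-fold), Ocln from 227 to 431 CPM, Mfsd2a from 169 to 320 CPM and Cldn5 from 4049 to 6747 CPM. Slc2a1, Abcb1a, Lsr, Cav1 and Cdh5 varied by 1.34-fold to 1.49-fold. Plvap stayed at or below 0.611 CPM.

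Over 14 classes and zones, the genes most like each of the 10 in mean log2(CPM + 1) were sought among 13251 genes. These points share libraries, and Pearson's r is a description. Cldn5 was nearest to Ptprb (r = 0.998) and Mecom (0.996), Cdh5 to Cyyr1 (0.987) and Itm2a (0.975), and Cav1 to Nkd1 (0.980) and Caskin2 (0.975). Ocln and Slc2a1 had the same nearest genes, Edn1 (0.984 and 0.977) and Ccm2l (0.978 and 0.975), and Mfsd2a was nearest to Slco1c1 (0.973) and Prom1 (0.969). Abcb1a was nearest to Slc52a3 (0.964) and Rph3al (0.957), and Lsr to Slc52a3 (0.963) and Cdh5 (0.941). Tjp1 was nearest to Ro60 (0.951) and Ankrd46 (0.942), and Plvap, with the lowest r, to 4933407L21Rik (0.878) and Inhbb (0.831).

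Ancrod was compared with saline to ask whether fibrinogen depletion changed these genes. None of the 10 passed the threshold in endothelial-like cells, in a zone or in the other classes tested, 98 tests in all. Of these, 6 had an unadjusted p under 0.05 with edgeR, which is not read as a result about the 10 genes. Over all genes such counts ran from 186 of 4490 in neutrophil-like cells to 1766 of 12776 in fibroblast-like cells. In endothelial-like cells 0% of 12498 genes passed with edgeR, 1169 had an unadjusted p under 0.05, and DESeq2 called 27, none of them among the 10. In sums over a class, fewer cells with a transcript and less RNA per cell cannot be told apart.

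Ocln had the lowest unadjusted p of the 10 in endothelial-like cells. It was at 356, 283, 306 and 317 CPM in saline mice 1 to 4 and at 233, 295, 286 and 233 CPM in ancrod mice 1 to 4. Ancrod mice 1 and 4 were below all saline mice and the other 2 within their range (log2 fold change -0.28 ± 0.10, adjusted p = 0.52, edgeR). Tjp1 was at 2019, 1712, 1685 and 1981 CPM and at 1445, 1926, 1542 and 1216 CPM, with ancrod mouse 2 alone within the saline range (-0.28 ± 0.14, adjusted p = 0.54). The same held for Abcb1a, at 1638, 1331, 1324 and 1537 CPM and at 1205, 1430, 1265 and 1051 CPM (-0.24 ± 0.11, adjusted p = 0.54). In the same cells ancrod mice 1 and 4 had the lowest sums of the 12 endothelial markers (15196 and 14442 CPM, against 16612 to 18248 CPM in saline mice). They also had the highest sums of fibroblast markers (303 and 218 CPM, against 73.3 to 84.7 CPM) and of pericyte markers (317 and 390 CPM, against 197 to 269 CPM). They were highest too in smooth muscle markers (41.8 and 39.5 CPM, against 4.595 to 11.6 CPM) and dividing markers (152 and 111 CPM, against 23.2 to 91.6 CPM). The part of these markers was not tested.

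Cdh5 was the 1 gene of the 10 whose groups did not overlap, as was true of 4.07% of all genes tested. Saline mice were at 619, 623, 629 and 609 CPM and ancrod mice at 728, 661, 716 and 689 CPM, all above the saline mice, and the difference did not pass (0.16 ± 0.08, adjusted p = 0.52). The sums of 3 marker lists did not overlap between the groups either. Ancrod mice were higher in the 8 astrocyte markers (176 to 227 CPM against 118 to 158 CPM) and the 6 dendritic markers (32.2 to 53.9 CPM against 14.0 to 27.6 CPM), and lower in the 6 markers of the capillary zone (5874 to 6743 CPM against 6861 to 8476 CPM). The part of these 3 lists was not tested, and the dendritic list includes Fscn1, a leading gene of the tip-like cluster. Cldn5 was at 6058 CPM in saline mouse 4 and between 3438 and 4989 CPM in the other 7 mice (-0.14 ± 0.15, adjusted p = 0.74), and without that mouse the log2 fold change was 0.02. Plvap was at 3.16, 22.1, 4.597 and 13.6 CPM in saline and at 15.9, 2.76, 4.97 and 40.6 CPM in ancrod mice, with overlap (0.58 ± 0.79, adjusted p = 0.79). Its sign turned within batch 1 (-0.36) and without ancrod mouse 4 (-0.48). Mfsd2a (-0.22 ± 0.13), Slc2a1 (-0.19 ± 0.23), Lsr (-0.10 ± 0.08) and Cav1 (0.08 ± 0.13) did not pass.

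The effect of ancrod was then read within each zone. The log2 fold changes of the 9 genes tested lay between -0.21 (Tjp1) and 0.16 (Cdh5) in capillary-like cells, between -0.18 and 0.23 in arterial-like cells and between -0.12 and 0.11 in venous-like cells. In tip-like cells all 10 were tested and lay between -0.41 (Plvap, SE 0.63) and 0.01 (Mfsd2a). Mfsd2a, at -0.22 over all endothelial-like cells, was at -0.02 ± 0.09 in capillary-like cells. Of all genes, 0% passed in each of the 4 zones, with 342 to 563 at an unadjusted p under 0.05 and 1 to 4 called by DESeq2.

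The effect of ancrod was also compared between zones. Against capillary-like cells it did not differ past the threshold for any of the 10 genes. Of all 11540 genes tested, 0% passed in arterial-like and venous-like cells and 0.0693% in tip-like cells. With edgeR 414, 262 and 1092 of them, in the same order, had an unadjusted p under 0.05. The lowest adjusted p among the 10 was 0.58, for Cav1 in tip-like cells (-0.25 ± 0.13). A p that misses the threshold does not show that levels were equal.

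**Figure D4:**
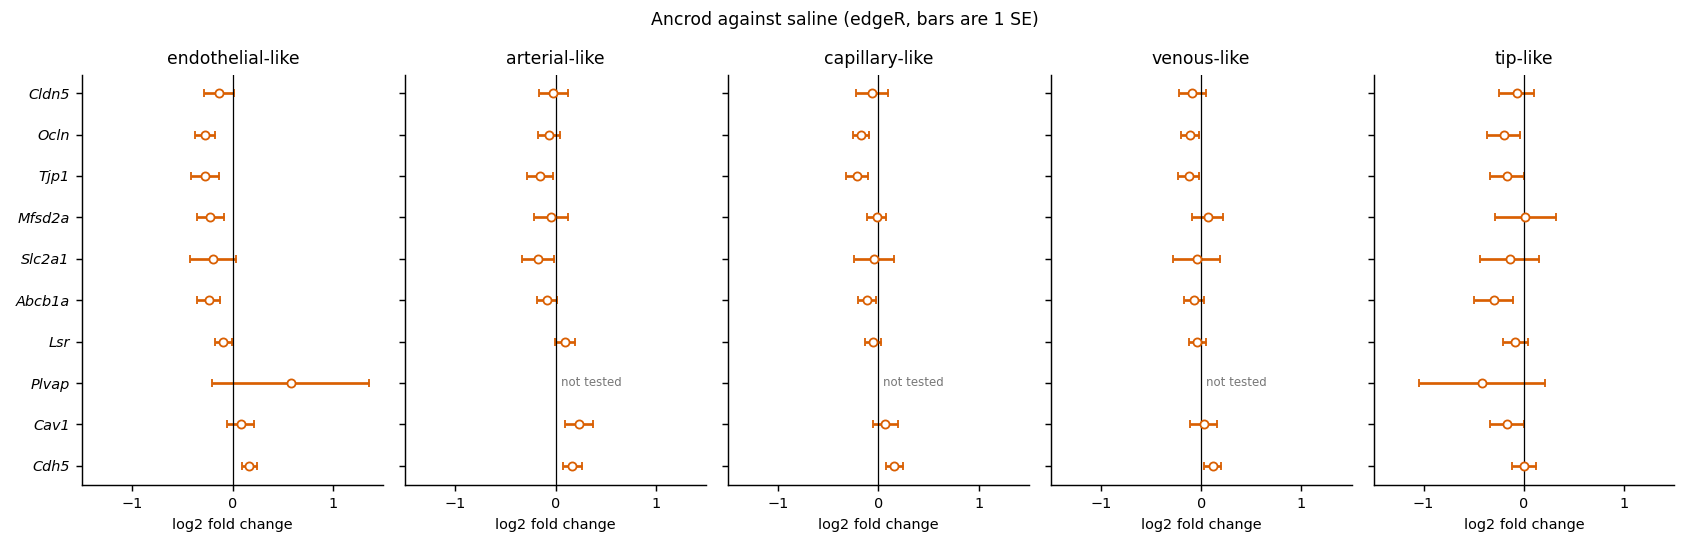
Log2 fold change of each gene, ancrod against saline, in all endothelial-like cells and in each zone (edgeR, 4 mice a group); bars are 1 SE, and open points did not pass the adjusted threshold of 0.05. The values lie between -0.41 and 0.58, both of Plvap, which had too few UMIs to be tested in 3 zones.

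The zones took different shares of the endothelial-like cells in the 2 groups, without passing a test. These shares are of 973 to 1216 cells in saline mice and 386 to 769 cells in ancrod mice. The paper reports that reactive fibroblasts and macrophages tended to take larger shares after ancrod. It holds easier dissociation of a less fibrotic injury site to be the likely reason. The part of cell recovery in the zone shares was not tested and cannot be told apart from treatment. Capillary-like cells made up 75.2, 64.7, 71.1 and 68.7% in saline mice and 55.7, 59.8, 64.8 and 63.7% in ancrod mice. The groups overlapped by saline mouse 2 and ancrod mouse 3 (difference -8.93 percentage points, two-sided exact permutation test, p = 0.057, adjusted over the 4 zones 0.17). Without saline mouse 2 the difference was -10.7 (exact permutation p = 0.029, unadjusted). Leaving out that mouse removes the overlap, so this p is no separate evidence. Leaving out ancrod mouse 3 removes the overlap too, and there the exact permutation p was 0.057. With any other mouse left out the exact permutation p was 0.057 to 0.086. Tip-like cells made up 2.11, 5.14, 4.61 and 3.66% in saline mice and 12.2, 4.14, 9.77 and 7.93% in ancrod mice, of which only ancrod mouse 2 lay in the saline range (4.63 percentage points, exact permutation p = 0.086, adjusted 0.17). Without ancrod mouse 2 the difference was 6.08 (exact permutation p = 0.029, unadjusted). Leaving out that mouse again removes the overlap, so this p is no separate evidence either. Any other mouse left out gave an exact permutation p of 0.086 to 0.11. Venous-like cells differed by 5.27 percentage points (exact permutation p = 0.14, adjusted 0.19) and arterial-like cells by -0.83 (exact permutation p = 0.49, adjusted 0.49). With 1 mouse left out these 2 differences were 3.47 to 6.91 and -1.27 to -0.22.

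The smallest p that the 70 arrangements of 8 mice allow is 0.029. Within batch 1 the differences were -10.3 percentage points for capillary-like, 4.74 for tip-like, 7.02 for venous-like and -1.48 for arterial-like cells, where the smallest p is 0.1. Batch 2, with 1 mouse a group, had differences of -4.96, 4.28, 0.0284 and 1.10 in the same order.

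**Figure D5:**
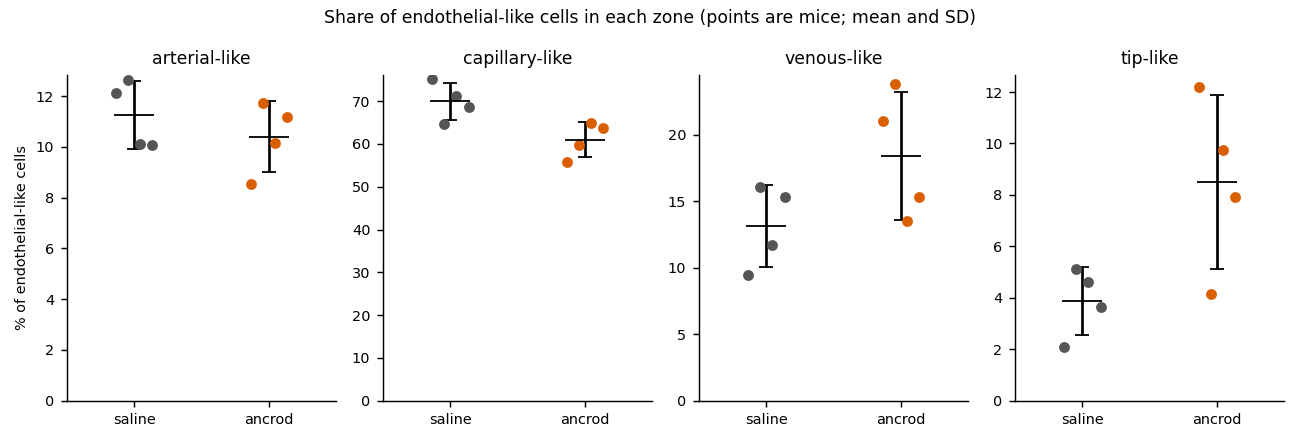
Share of endothelial-like cells in each zone (percent, axes from 0) in 4 saline and 4 ancrod mice; points are mice, and black marks give the mean and SD. Tip-like shares run from 2.11 to 5.14% in saline mice and from 4.14 to 12.2% in ancrod mice, with overlap.

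In the other 9 classes tested, 1 to 9 of the genes had enough UMIs. Of all genes, 0.174% passed in pericyte-like cells and 0% in the other 8 classes with edgeR (186 to 1766 at an unadjusted p under 0.05, and 0 to 99 called by DESeq2). Cldn5 in pericyte-like cells was at 26.4, 17.0, 13.1 and 13.04 CPM in saline mice and at 6.24, 7.60, 5.51 and 14.3 CPM in ancrod mice, all below the free RNA (-1.07 ± 0.35, unadjusted p = 0.0079, adjusted p = 0.28, edgeR). Tjp1 in fibroblast-like cells was at 159, 127, 134 and 144 CPM and at 126, 100.3, 119 and 106 CPM, the highest ancrod value lying just below the lowest saline value (-0.31 ± 0.10, unadjusted p = 0.0097, adjusted p = 0.28, edgeR). The share of all genes without overlap was not counted in this class, where 1766 of 12776 genes had an unadjusted p under 0.05 with edgeR. Cav1 in fibroblast-like cells, at 4.01 to 21.2 CPM in saline and 12.8 to 46.1 CPM in ancrod mice, had 1.27 ± 0.57 (adjusted p = 0.36, and 0.035 with a replicate block, edgeR). Both Tjp1 and Cav1 were below the free RNA in fibroblast-like cells of every mouse, with means of 127 and 17.0 CPM against 242 and 38.2 CPM. Saline mouse 3 had 23 fibroblast-like cells. The other tests with an unadjusted p under 0.05 were those of Cav1 (0.67 ± 0.23, unadjusted p = 0.016) and Abcb1a (-1.49 ± 0.59, unadjusted p = 0.030) in astrocyte-like cells and of Slc2a1 in T-like or NK-like cells (-0.63 ± 0.27, unadjusted p = 0.037), with an adjusted p from edgeR of 0.9887 or above. Their mean levels, 29.4, 4.72 and 56.8 CPM, were below those of the free RNA.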

How the data were processed

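Cells of the PT injury site of 8 mice were profiled by 10x 3′ single-cell RNA-seq (v3.1), 1 library per mouse. The authors deposited, per the labels, raw UMI counts of every droplet, made with Cell Ranger 7.1.0 and STAR on GRCm39 (mm39) from exonic and intronic reads. Droplets with at least 2000 UMIs and under 20% mitochondrial UMIs were kept, 2144 doublets predicted from simulated pairs were removed, and cells were clustered (Leiden, leidenalg 0.10.2, resolution 2, 51 clusters) and named from marker lists. Clusters led by another class, with markers of a second class or with low UMIs stayed unnamed (4987 cells, 519 of them in 3 endothelial clusters with pericyte, microglia or astrocyte markers), by limits set after the clusters were seen. Endothelial-like cells were clustered again (resolution 1, 15 clusters) without the 10 genes and the 67 list genes.

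UMIs were summed per mouse and class or zone, for classes with at least 10 cells in every mouse compared, and tested with edgeR 4.0.16 (filterByExpr, TMM, quasi-likelihood F test, Benjamini-Hochberg over all genes tested, threshold 0.05, SE as the log2 fold change over the root of F) in R 4.3.3. Zone fits had the mouse as a block, and ancrod fits had no covariate. Zone shares were compared by exact permutation over mice. DESeq2 1.42.0, no filter, other UMI and mitochondrial limits, kept doublets, zones by marker score, thinned cells, batch and replicate terms and each mouse left out were alternatives. The tests were first run on simulated data. CPM carries the counting error of its UMIs, which range from 7 to 508713 for a gene over a zone or all endothelial-like cells. The p-values of the ancrod fits and of the zone shares measure the spread between mice. Those of the zone contrasts and of zone by treatment, with the mouse as a block, measure how zone differences spread over mice.

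The 10 genes were named in every comparison, and from each list the 2 genes with the highest and the 2 with the lowest log2 difference among those past the threshold, of which 1 is not reported here. The genes, lists and tests were chosen with earlier results of these data known.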

Additional observations from a re-analysis of the deposited data

Results flagged for a closer look

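Within the 4 mice of a group, 1 mouse stood far from the other 3 in 4 of 100 sets of values, where chance alone flags about 1 in 20. Cav1 in arterial-like cells was at 322 CPM in ancrod mouse 2, against 438 to 461 CPM in the other ancrod mice. Ocln in tip-like cells was at 116 CPM in saline mouse 2, against 151 to 156 CPM. Abcb1a in tip-like cells was at 268 CPM in ancrod mouse 4, against 479 to 520 CPM, and that mouse also had the highest sum of pericyte markers in its tip-like cells (921 CPM). Plvap in venous-like cells was at 0.926 CPM in saline mouse 2 and at 0 in the other saline mice, a difference of few UMIs. No gene of the 10 passed the test of a different ancrod effect between zones.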

How the results depend on the processing

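Of 480 values of the 10 genes in the zone contrasts under alternatives, 444 kept their direction and side of the threshold. With the same sign 12 lost the call and 6 gained it, and 18 turned sign. Among the 18, Abcb1a and Plvap in venous-like cells also crossed to pass with zones by marker score. Lsr in venous-like cells, also among them, lost its call with thinned cells. The cause was not tested. No gene turned in tip-like cells. Mfsd2a in arterial-like cells moved around 0 (0.023 with DESeq2, 0.028 without the mouse block, 0.0048 with mitochondrial shares below 10%, and -0.047 to 0.037 with 1 mouse left out). Abcb1a in venous-like cells turned to -0.0035 at a minimum of 5000 UMIs and to -0.15 with zones by marker score, which also gave 0.059 for Cdh5 and 6.38 for Plvap there. Plvap in venous-like cells was 0.061 without the mouse block and -1.31 to 0.44 with 1 mouse left out. Thinned cells gave -0.015 for Lsr in venous-like cells and 0.028 for its ancrod effect in endothelial-like cells. With 1 mouse left out, the ancrod effect there was -0.21 to 0.02 for Cldn5, -0.48 to 1.22 for Plvap (-0.36 within batch 1) and -0.010 to 0.19 for Cav1, -0.32 to -0.014 for Slc2a1, -0.34 to -0.13 for Mfsd2a, -0.16 to -0.037 for Lsr, -0.41 to -0.16 for Tjp1 and -0.32 to -0.15 for Abcb1a.

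Thinning left 1181 genes past the threshold in arterial-like, 1665 in venous-like and 2539 in tip-like cells, with fewer UMIs by construction, against 3038, 4209 and 8186. For ancrod, DESeq2 called 27 genes in endothelial-like, 4 in capillary-like, 3 in arterial-like, 1 each in venous-like and tip-like and 88 in pericyte-like cells. No filter gave 6 in arterial-like, 1 in tip-like and 83 in pericyte-like cells, and the batch term 2 in arterial-like cells. Zones by marker score gave 1 in venous-like and kept doublets 1 in tip-like cells. In pericyte-like cells (16) a minimum of 5000 UMIs gave 5, mitochondrial shares below 10% gave 0 and thinning 6. With 1 mouse left out the counts were 0 to 1 in venous-like, 0 to 5 in tip-like and 0 to 30 in pericyte-like cells. Zone by treatment gave 2 (DESeq2), 3 (no filter), 4 (thinned) and 0 to 1 (1 mouse left out) in arterial-like cells and 2 (no filter) in venous-like cells. In tip-like cells (8) it gave 34 (DESeq2), 66 (no filter), 0 (marker score, thinned) and 1 to 33 (1 mouse left out).

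Of the 10 genes, 2 passed for ancrod with no filter, Cldn5 (-3.56, adjusted p = 1.8e-08) and Tjp1 (-1.99, adjusted p = 0.0076) in neutrophil-like cells, which had 27 to 240 cells in 7 mice and 12 in the other. Both genes were below the free RNA there in every mouse, with means of 28.9 and 29.4 CPM against 477 and 242 CPM. The capillary-like share differed by -7.86 percentage points at a minimum of 5000 UMIs, by -10.4 with zones by marker score (exact permutation p = 0.029 each, unadjusted) and by -10.7 to -7.15 with 1 mouse left out, and the tip-like share by 3.402 to 6.08 with 1 mouse left out. Neutrophil-like cells could not be fitted at a minimum of 5000 UMIs.

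The replicate numbers were not taken as pairs: same-numbered mice correlated at 0.017, 0.038, 0.11 and 0.37 in their deviations from the group mean over 8464 genes, and not every mouse correlated best with its own number. A replicate block gave 2 genes in arterial-like and 83 in pericyte-like cells, and 1 of the 10 genes, Cav1 in fibroblast-like cells (1.55 ± 0.22, adjusted p = 0.035, edgeR). The paired fit changed no other call of the 10 genes.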

Other observations

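Ependymal-like cells, which line the ventricles, came almost entirely from 1 mouse, with 47 of 50 cells in saline mouse 4, and so entered no comparison. In that mouse they held 444 CPM of Slc2a1 and 95.1 CPM of Ocln, against 202 and 38.2 CPM in its free RNA, and 116 CPM of Tjp1 against 281 CPM. Cldn5 was at 2.16 CPM, and Plvap, Cav1 and Cdh5 were at 0.721 CPM each.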
